A study of Homo sapiens with 12 samples.

Results

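The response to a triple treatment, the gamma secretase inhibitor MK-0752 given with gemcitabine and docetaxel (the combination), was compared gene by gene between 2 uterine leiomyosarcoma (uLMS) cell lines, to show which responses the lines share and which run in opposite directions. The genes described are those with a mean of at least 200 raw counts in the libraries of each line, which gave 9050 of the 60649 genes in the count table and 9050 of the 20166 genes tested. The mean is taken over the DMSO and combination libraries together, so a gene that is high in only 1 group can reach it, and 331 of the 9050 genes had under 200 mean counts in at least 1 of the 4 groups. Of the genes called below these are COL15A1, NMNAT1, RBMS1, RN7SKP203, SEMA7A, SERPINF1, SLC16A4, and TNFRSF10D. The gene nearest inside the limit was ZCCHC4, with a mean of 200 counts in SK-UT-1B, while RNASEH1-AS1, with a mean of 199.8 counts in SK-LMS-1, was the nearest outside it. Both are established lines. SK-LMS-1 was derived from a metastasis in the vulva, and SK-UT-1B, whose cells look epithelial, came from a primary tumor. Treatment lasted 72 h in both lines. For SK-UT-1B, libraries 4-1 and 4-2 are from cells given the DMSO vehicle, and 3-1 and 3-3 are from cells given the combination. For SK-LMS-1, libraries 2-1, 2-3, 4-1, and 4-2 are DMSO, and a second pair numbered 4-1 and 4-2 is the combination. Each line received the concentrations set from its own viability curves, so the doses differed between the lines. The first number of a library is called its set here, although the labels do not say what it stands for. In SK-UT-1B set 4 holds only DMSO and set 3 only the combination, so that set and treatment cannot be told apart in that line. The labels do not say that the libraries of a group came from separate cultures, so the p-values measure the spread between these libraries, which may be technical.

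MK-0752 inhibits gamma secretase, the membrane protease that cuts Notch receptors after ligand binding and so frees the intracellular fragment that activates target genes such as HES1. Gemcitabine is a cytidine analog that is built into DNA and inhibits ribonucleotide reductase, the enzyme that makes deoxynucleotides. Docetaxel stabilizes microtubules and disturbs the mitotic spindle. Genes for mitosis are transcribed late in the cell cycle, in many cases through a promoter element called the cell cycle genes homology region (CHR), and genes for DNA replication and histones are transcribed earlier, around S phase. In a bulk sample, fewer cells in one phase of the cycle and less RNA per cell cannot be told apart.

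Between 25250057 and 40709885 reads were counted on genes in each of the 10 libraries, and the 9050 genes held 90.5% to 91.1% of the counts in SK-LMS-1 and 95.3% to 95.9% in SK-UT-1B. Only 1 of them had 0 counts in any library, in SK-LMS-1 DMSO 4-1. Library 3-1 of the SK-UT-1B combination stood apart from the other SK-UT-1B libraries, with a median correlation of 0.927 of its log2 values against 0.964 to 0.966 for the other 3, and its log2 values differed from those of 3-3 with a SD of 0.548, against 0.39 between the SK-UT-1B DMSO libraries and 0.268 between the SK-LMS-1 combination libraries. The SK-LMS-1 DMSO libraries 2-1 and 4-1 were also far apart (SD 0.576). The numbers of called, shared, and opposite genes, the list medians, and the main counts of genes without overlap were therefore recomputed without 3-1, without 3-3, and without 2-1 and 4-1. The smooth muscle markers were mixed. MYOCD was at 0 in SK-UT-1B and in SK-LMS-1 after DMSO, MYH11 stayed under 1 CPM, the counts scaled to library size, in both lines, and ACTG2, CNN1, and LMOD1 did so in SK-UT-1B, where ACTA2 reached 2.79 to 5.04 CPM, SMTN 30.1 to 66.3 CPM, and CALD1 43.1 to 47.1 CPM. TAGLN reached at most 1.74 CPM and MYLK 3.69 CPM there. In SK-LMS-1 MYLK reached 455 to 583 CPM, CALD1 310 to 379 CPM, SMTN 137 to 208 CPM, TAGLN 30.9 to 46.8 CPM, and ACTA2 14.8 to 23.1 CPM. DES, the muscle intermediate filament, was at 1.38 to 9.85 CPM in SK-UT-1B and at 0 in SK-LMS-1. VIM, the mesenchymal intermediate filament, reached 2860 to 4470 CPM in SK-UT-1B and 11900 to 13100 CPM in SK-LMS-1, and the cadherin CDH2 reached 2.04 to 4.50 and 396 to 473 CPM. The epithelial markers EPCAM and CDH1 stayed under 1 CPM in both lines, whereas the keratin KRT8 was at 0 in SK-UT-1B and at 98.2 to 110 CPM in SK-LMS-1.

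The responses of the lines were weakly related over the 9050 genes, and the fitted values of SK-UT-1B were spread more widely. The fitted log2FC, the log2 of combination over DMSO, had a SD of 0.424 over these genes in SK-UT-1B and 0.219 in SK-LMS-1, and its size was larger in SK-UT-1B for 6358 of them. This spread includes error. The median absolute log2FC was 0.256 in SK-UT-1B and 0.124 in SK-LMS-1, beside a median standard error (SE) of 0.253 and 0.219. How much of the wider spread is error was not tested. The sign was the same in both lines for 4955 genes (54.8%), of which 2737 were above 0 and 2218 below 0, and opposite for 4095, of which 1868 were above 0 in SK-UT-1B and below 0 in SK-LMS-1 and 2227 were the reverse. Across the 9050 genes, which share libraries and depth and are not independent replicates, Pearson's r of the log2FC was 0.146 and Spearman's rho was 0.148. The share with the same sign was 62.4% among the 1358 genes with an unadjusted p under 0.05 in SK-UT-1B (15% of the 9050, against 10.1% of all genes tested) and 70.9% among the 172 such genes in SK-LMS-1. It was 53.1% in the lowest tercile of the genes by count, 54% in the middle tercile, and 57.1% in the highest tercile. Over the alternatives that leave out a library, the number of genes with the same sign stayed between 4889 and 4986.

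**Figure D1:**
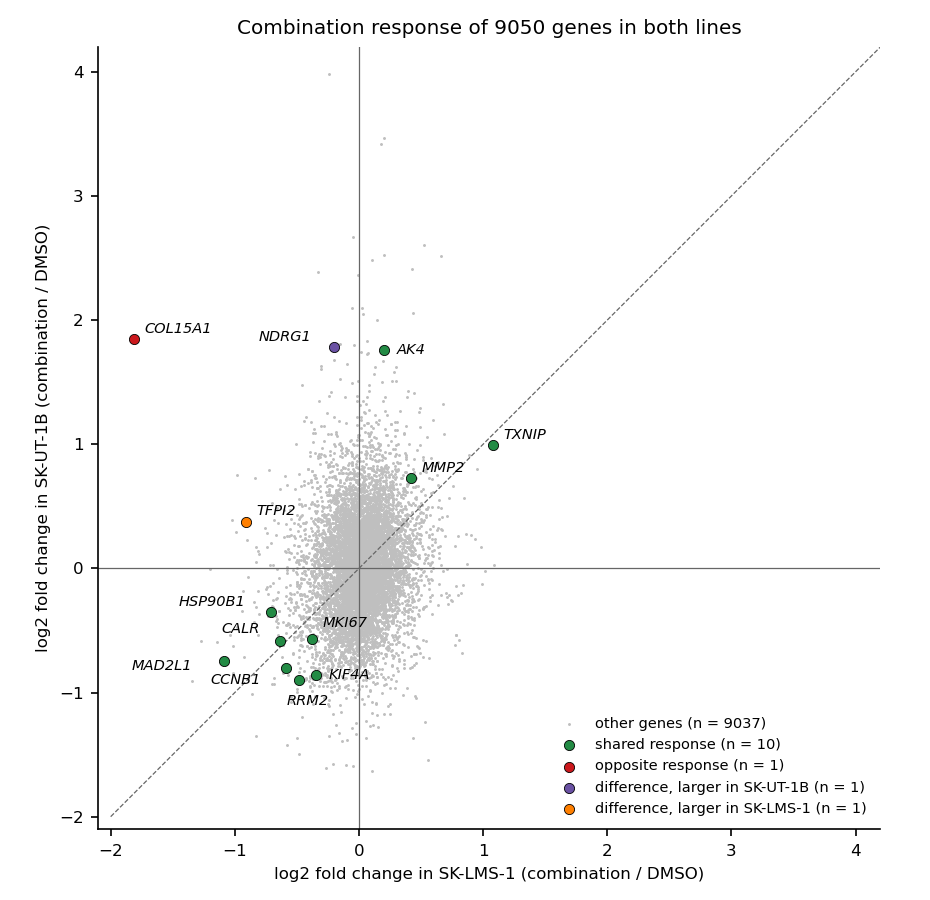
The log2FC of the combination in SK-UT-1B (vertical axis) is plotted against that in SK-LMS-1 (horizontal axis) for the 9050 genes with at least 200 mean counts in both lines, 1 point per gene, with the 10 shared responses, the opposite response of COL15A1, and the 2 other genes that differ between the lines marked and named. The cloud is wider along the SK-UT-1B axis (SD 0.424) than along the SK-LMS-1 axis (SD 0.219), and COL15A1 lies alone at 1.85 and -1.81.

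Few single genes passed the test with 2 combination libraries per line. The difference between the lines passed (edgeR quasi-likelihood test, Benjamini-Hochberg adjusted p under 0.05) for 31 of all 20166 genes tested, or 0.154% (0.109% higher in SK-UT-1B and 0.0446% lower), and for 3 of the 9050 genes (0.0331%), all of them higher in SK-UT-1B. Of the other 28 called genes, 24 had under 200 mean counts only in SK-UT-1B and 4 only in SK-LMS-1. A total of 598 of the 9050 genes (6.61%, against 6.85% of all genes tested) had an unadjusted p under 0.05 for the difference, and DESeq2, the tool of the study, called 38 (0.42%, against 0.861% of the 15791 genes to which it gave an adjusted p), of which 25 were higher in SK-UT-1B. In SK-UT-1B alone, 35 of the 9050 genes (0.387%, against 0.481% of all genes tested) passed the test, 25 higher (0.276%) and 10 lower (0.11%) after the combination, against 0.342% and 0.139% of all genes tested. In SK-LMS-1 alone, 1 did (0.011%, against 0.0397% of all genes tested), and it was higher after the combination, while 172 had an unadjusted p under 0.05 (1.9%, against 3.01% of all genes tested). Of all genes tested in SK-LMS-1, 0.0248% were called higher and 0.0149% lower. The mean of both lines' responses passed for 17 (0.188%, against 0.327% of all genes tested), 8 higher (0.0884%, against 0.223%) and 9 lower (0.0994%, against 0.104%). The number called for the difference was 8 without library 3-1 and 327 without 3-3, when 3-1 alone stands for the SK-UT-1B combination and is assumed to vary like the libraries of the other groups.

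A gene was taken as a shared response if the mean effect passed the test and the combination libraries lay beyond all DMSO libraries in the same direction in both lines, and as an opposite response if the difference passed and the libraries did not overlap in opposite directions. In these terms 10 genes were shared responses and 1 was an opposite response. The combination libraries lay above all DMSO libraries in SK-UT-1B for 21% of the 9050 genes and below them for 21.8%, and in SK-LMS-1 for 8.34% and 4.6%. Over all genes tested these shares were 17.3% and 16% for SK-UT-1B and 8.16% and 3.49% for SK-LMS-1. Both lines separated in the same direction for 353 genes (3.9%, against 2.59% of all genes tested), of which 210 were higher (2.32%, against 1.74%) and 143 lower (1.58%, against 0.848%). They separated in opposite directions for 160 (1.77%, against 1.42%), of which 58 were higher in SK-UT-1B and lower in SK-LMS-1 (0.641%, against 0.446%) and 102 were the reverse (1.13%, against 0.977%). A group with fewer libraries overlaps less often, and the numbers were 529 and 308 without 3-1, 565 and 379 without 3-3, and 962 and 548 without SK-LMS-1 DMSO 2-1 and 4-1.

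COL15A1 was the opposite response. It reached the limit of 200 counts in SK-LMS-1 through its DMSO libraries (a mean of 557 counts, against 152 after the combination), and no opposite response is left if each group must reach it. It encodes the alpha chain of collagen XV, a basement membrane collagen found around muscle cells and capillaries, and lies at chr9:98943179-99070792 on the plus strand (hg38). In SK-UT-1B it was at 19.7 and 19.5 CPM after DMSO and at 98.5 (3-1) and 42.3 (3-3) CPM after the combination. In SK-LMS-1 it was at 20.7, 15.4, 19.7, and 15.9 CPM after DMSO and at 6.55 and 3.60 CPM after the combination. The DMSO levels of the lines were close, and all combination libraries were above them in SK-UT-1B and below them in SK-LMS-1. The log2FC was 1.85 ± 0.38 (SE) in SK-UT-1B (adjusted p = 0.0367) and -1.81 ± 0.35 in SK-LMS-1 (adjusted p = 0.133), and their difference was 3.66 ± 0.52 (edgeR adjusted p = 0.00287), a 12.6-fold ratio between the fold changes. The difference was 2.95 without 3-1 and 4.14 without 3-3 and passed in both cases, and it was 3.46 without the SK-LMS-1 DMSO libraries 2-1 and 4-1 (adjusted p = 0.0526). An unnamed gene model lies on the other strand within COL15A1, and the strand setting of the counts is not given in the sources used here. The 19 genes of a list of collagens and collagen-modifying enzymes, which does not hold COL15A1, had a median log2FC of -0.10 in SK-UT-1B and -0.08 in SK-LMS-1 and 0 of them passed for the difference (edgeR), while DESeq2 called 1, COL1A1 (difference -0.70, adjusted p = 0.0278).

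NDRG1 rose in SK-UT-1B, and its response there was higher than in SK-LMS-1. It encodes a stress-responsive protein that is known to be raised by hypoxia and iron depletion, and it lies at chr8:133237175-133302022 on the minus strand. In SK-UT-1B it was at 8.69 and 11 CPM after DMSO and at 35.8 and 32.1 CPM after the combination. In SK-LMS-1 it was at 172, 208, 300, and 229 CPM after DMSO and at 204 and 190 CPM after the combination, within the range of the DMSO libraries. The log2FC was 1.78 ± 0.23 in SK-UT-1B (adjusted p = 0.000900) and -0.20 ± 0.19 in SK-LMS-1, with a difference of 1.99 ± 0.30 (edgeR adjusted p = 0.00473). After DMSO the level was 23.1-fold higher in SK-LMS-1, so that the rise left SK-UT-1B well below SK-LMS-1. The difference passed in 18 of 19 alternatives and missed the threshold without SK-LMS-1 combination 4-2 (1.94, adjusted p = 0.0656).

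TFPI2 also differed between the lines, with the larger absolute log2FC in SK-LMS-1, where it was below 0. It encodes a secreted Kunitz-type inhibitor of serine proteases that binds to the extracellular matrix, and it lies at chr7:93885396-93890753 on the minus strand. In SK-LMS-1 it was at 1420, 1150, 1120, and 1180 CPM after DMSO and at 613 and 683 CPM after the combination, below every DMSO library. In SK-UT-1B it was at 18.1 and 24.2 CPM after DMSO and at 23.3 and 31.6 CPM after the combination, and these ranges overlap. The log2FC was 0.38 ± 0.18 in SK-UT-1B and -0.91 ± 0.16 in SK-LMS-1 (adjusted p = 0.0544), with a difference of 1.29 ± 0.24 (edgeR adjusted p = 0.0412). After DMSO the level was 57.8-fold higher in SK-LMS-1. This call rests on single libraries, since it passed in 8 of 19 alternatives and was lost without SK-LMS-1 DMSO 2-1 (adjusted p = 0.0776), 2-3 (0.0925), or 4-2 (0.103), without SK-LMS-1 combination 4-1 (0.333) or 4-2 (0.151), and without SK-UT-1B DMSO 4-1 (0.198), while the difference itself stayed between 1.05 and 1.52. GNGT1 overlaps TFPI2 on the other strand.

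**Figure D2:**
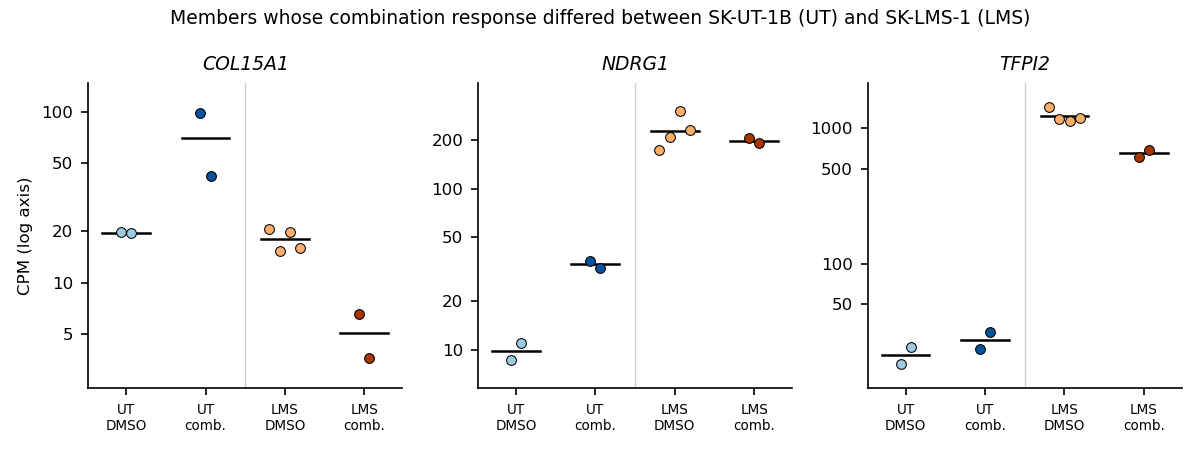
Each point is the CPM of 1 library on a log axis, for the 3 genes whose response differs between the lines. Groups are on the horizontal axis, with a bar at the group mean. COL15A1 goes from 19.5 to 19.7 CPM up to 42.3 and 98.5 CPM in SK-UT-1B and from 15.4 to 20.7 CPM down to 3.60 and 6.55 CPM in SK-LMS-1.

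No gene with a lower response in SK-UT-1B passed the test of the difference, and the 3 with the lowest p are given as not past the threshold. ANXA1, a calcium-dependent phospholipid-binding protein with anti-inflammatory roles, was at 53.1 and 57.5 CPM after DMSO and at 28.2 and 31.4 CPM after the combination in SK-UT-1B, and at 335 to 432 CPM and 413 and 473 CPM in SK-LMS-1 (difference -1.11 ± 0.22 (SE), edgeR adjusted p = 0.0561). SELENOW, a small selenoprotein with a redox-active site, was at 67.5 and 53.9 CPM and then at 27.7 and 26.1 CPM in SK-UT-1B. SELENOW in SK-LMS-1 was at 45.5 to 54.7 CPM after DMSO and at 55.2 and 61.0 CPM after the combination, so that neither line's groups overlapped and the directions were opposite (difference -1.42 ± 0.28, edgeR adjusted p = 0.0561). SEMA7A, a membrane-anchored semaphorin, was at 15.3 and 10.7 CPM and then at 3.20 and 5.44 CPM in SK-UT-1B, against 138 to 162 CPM and 133 and 150 CPM in SK-LMS-1 (difference -1.55 ± 0.31, edgeR adjusted p = 0.061). All 3 fell in SK-UT-1B itself, with edgeR adjusted p of 0.0206, 0.0178, and 0.00642. With DESeq2 all 3 passed for the difference, SELENOW counted as an opposite response, and ABCA1, CHST11, and SERINC3 were among those that joined COL15A1 as higher in SK-UT-1B and lower in SK-LMS-1. The last 3 genes were named after their values were seen.

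The 10 shared responses were 3 genes that rose and 7 that fell over both lines. The 7 were the mitotic genes MAD2L1, CCNB1, KIF4A, and MKI67, the ribonucleotide reductase subunit RRM2, and the endoplasmic reticulum (ER) chaperones CALR and HSP90B1. The 3 were AK4, TXNIP, and MMP2. A shared call rests on the mean of both lines, and of the 10 genes AK4, MMP2, and RRM2 also passed in SK-UT-1B alone and none in SK-LMS-1 alone. None of the 10 passed for the difference with edgeR, but DESeq2 called AK4 as different between the lines (1.58, adjusted p = 0.0222). Of the 10, 9 (not MMP2) had a promoter in RefSeq (GRCh38.p14), defined as 250 bases before to 50 bases after the start site. The promoters of CCNB1, KIF4A, MKI67, and RRM2 and those of CALR and HSP90B1 are shown because each of these groups carries the same short motifs, and that of TXNIP is shown for a motif of its own. They are written 5′ to 3′ on the strand of the gene from the first listed start site, with the searched letters in capitals, which are TTTGAA or TTTAAA (the CHR) and CCAAT or its complement ATTGG (the CCAAT box) in the genes for mitosis and RRM2. In CALR and HSP90B1 the capitals mark the ends of the ER stress response element (ERSE), which is CCAAT and CCACG with 9 bases between them on either strand, and other CCAAT boxes. In TXNIP they mark a pair of E-box-like letters, 2 copies of CACGNG with 5 bases between them, as found in carbohydrate response elements, and CCAAT boxes.
CCNB1: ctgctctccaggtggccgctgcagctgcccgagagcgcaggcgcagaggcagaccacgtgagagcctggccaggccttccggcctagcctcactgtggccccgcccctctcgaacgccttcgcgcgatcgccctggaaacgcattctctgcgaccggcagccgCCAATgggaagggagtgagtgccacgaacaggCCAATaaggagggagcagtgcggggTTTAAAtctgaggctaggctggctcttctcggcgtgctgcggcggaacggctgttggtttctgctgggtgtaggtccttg
KIF4A: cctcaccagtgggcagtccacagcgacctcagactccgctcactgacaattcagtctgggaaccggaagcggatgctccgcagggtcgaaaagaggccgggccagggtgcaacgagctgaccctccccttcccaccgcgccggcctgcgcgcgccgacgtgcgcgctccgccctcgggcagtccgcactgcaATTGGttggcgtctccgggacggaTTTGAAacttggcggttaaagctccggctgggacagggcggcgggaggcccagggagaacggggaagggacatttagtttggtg
MKI67: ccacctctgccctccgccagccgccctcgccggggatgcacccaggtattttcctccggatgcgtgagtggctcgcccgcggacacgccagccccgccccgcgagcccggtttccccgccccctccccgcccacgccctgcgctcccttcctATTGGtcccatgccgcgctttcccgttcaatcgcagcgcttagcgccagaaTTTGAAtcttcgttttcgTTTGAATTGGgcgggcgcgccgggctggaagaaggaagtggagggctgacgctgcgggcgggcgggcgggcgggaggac
RRM2: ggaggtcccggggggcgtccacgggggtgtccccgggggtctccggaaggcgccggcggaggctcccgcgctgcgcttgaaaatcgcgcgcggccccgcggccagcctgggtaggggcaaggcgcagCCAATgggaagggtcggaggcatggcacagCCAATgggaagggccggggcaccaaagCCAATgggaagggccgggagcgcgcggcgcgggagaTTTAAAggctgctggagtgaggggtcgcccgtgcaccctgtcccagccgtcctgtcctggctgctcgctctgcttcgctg
CALR: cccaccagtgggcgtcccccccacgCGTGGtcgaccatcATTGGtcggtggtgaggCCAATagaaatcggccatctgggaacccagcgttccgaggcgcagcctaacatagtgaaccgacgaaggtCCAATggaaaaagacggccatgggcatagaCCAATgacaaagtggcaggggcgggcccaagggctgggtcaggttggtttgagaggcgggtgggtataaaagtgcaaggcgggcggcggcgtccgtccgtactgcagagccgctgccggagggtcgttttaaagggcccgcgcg
HSP90B1: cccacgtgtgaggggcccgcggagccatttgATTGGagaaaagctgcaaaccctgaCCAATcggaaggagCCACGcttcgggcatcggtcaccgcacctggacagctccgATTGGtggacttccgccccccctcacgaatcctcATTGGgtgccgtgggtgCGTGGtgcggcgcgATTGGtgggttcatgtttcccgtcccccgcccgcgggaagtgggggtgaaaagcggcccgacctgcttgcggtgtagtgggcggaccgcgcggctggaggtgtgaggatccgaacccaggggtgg
TXNIP: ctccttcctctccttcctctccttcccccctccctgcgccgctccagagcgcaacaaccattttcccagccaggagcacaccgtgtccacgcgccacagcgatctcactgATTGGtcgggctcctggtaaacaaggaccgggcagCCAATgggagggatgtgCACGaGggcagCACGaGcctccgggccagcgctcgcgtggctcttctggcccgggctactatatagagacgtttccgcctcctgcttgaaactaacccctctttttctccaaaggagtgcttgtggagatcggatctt

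These windows lie at chr5:69166900-69167199 for CCNB1, chrX:70289854-70290153 for KIF4A, chr10:128126374-128126673 for MKI67 (minus strand), chr2:10122489-10122788 for RRM2, chr19:12938359-12938658 for CALR, chr12:103930160-103930459 for HSP90B1, and chr1:145996530-145996829 for TXNIP (minus strand), with the plus strand for the others. Positions are those of a motif's first base from the start site. CCNB1 holds TTTAAA at -30 with CCAAT at -87 and -55, and RRM2 holds TTTAAA at -30 with CCAAT at -123, -93, and -66. KIF4A holds TTTGAA at -34 with a reverse CCAAT at -58. MKI67 holds TTTGAA at -47 and -29, the second overlapping a reverse CCAAT at -24, and another reverse CCAAT at -98. MAD2L1 (not printed, chr4:120066799-120067098, minus strand) holds TTTGAA at 25 bases after the start and a reverse CCAAT at -229. A CHR of either form was in 27 of the 32 mitosis promoters that matched (84.4%), in 14.9% of the promoters of the 9050 genes, of which 7441 matched, and in 24.3% of all 27305 promoters. A CHR together with a CCAAT box was in 21 of the 32 (65.6%), against 6.44% and 9.49%. The CCAAT box by itself is common, in 37.8% of the promoters of the 9050 genes and 35.7% of all promoters. It was in 78.1% of the mitosis, 62.9% of the DNA replication, and 84% of the replication-dependent histone promoters. For ER chaperones and sterol synthesis genes the shares were 85% and 84.6%. None of the 35 DNA replication promoters held a CHR. Of the 25 replication-dependent histone promoters that matched, 9 held a CHR (36%) and 7 held a CHR together with a CCAAT box (28%). Of the 20 ER chaperone promoters that matched, 4 held a CHR and 2 held a CHR together with a CCAAT box. The CALR window also holds TTTAAA, left in lower case because capitals there mark other motifs. The ERSE was at -225 in CALR and at -194 and -89 in HSP90B1. It was in 6 of 20 ER chaperone promoters (30%), 0.175% of those of the 9050 genes, and 0.0806% of all promoters. The pair of E-box-like letters was at -88 in TXNIP, in 0.175% of the promoters of the 9050 genes, and in 0.0732% of all promoters. It was in 1 of the 7 promoters of the alpha-arrestin list that holds TXNIP. At the second listed start sites, RRM2 held no CHR and TXNIP held no such pair. A match describes the letters in these windows and no binding was measured.

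MAD2L1, the spindle assembly checkpoint protein MAD2, was at 109 and 101 CPM after DMSO and at 49.3 and 75.9 CPM after the combination in SK-UT-1B. The SK-LMS-1 libraries were at 19.1, 26.4, 29.8, and 21.7 CPM and then at 11.2 and 11.6 CPM. Its log2FC was -0.75 in SK-UT-1B and -1.09 in SK-LMS-1, with a mean of -0.92 ± 0.18 (SE, edgeR adjusted p = 0.0354). CCNB1, cyclin B1, the partner of CDK1 at entry into mitosis, was at 153 and 197 CPM and then at 76.5 and 125 CPM in SK-UT-1B, and at 94.9 to 102 CPM and then at 62.1 and 67.8 CPM in SK-LMS-1. The mean log2FC of CCNB1 was -0.69 ± 0.14 (edgeR adjusted p = 0.0462). KIF4A, a chromosome-associated kinesin, was at 114 and 107 CPM and then at 55.3 and 66.5 CPM in SK-UT-1B, and at 69.0 to 80.3 CPM and then at 58.1 and 59.4 CPM in SK-LMS-1 (mean -0.60 ± 0.12, edgeR adjusted p = 0.0473). MKI67, the proliferation marker Ki-67, was at 1020 and 1010 CPM and then at 626 and 740 CPM in SK-UT-1B, and at 353 to 400 CPM and then at 314 and 261 CPM in SK-LMS-1 (mean -0.48 ± 0.10, edgeR adjusted p = 0.0461). These are RNA values, and the study, which measured Ki-67 by flow cytometry, reported no significant change after this combination in either line. In each of the 4 genes library 3-1 had the lower of the SK-UT-1B combination values.

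RRM2, the small subunit of ribonucleotide reductase, fell over both lines. It was at 313 and 338 CPM after DMSO and at 147 and 202 CPM after the combination in SK-UT-1B, and at 213, 219, 201, and 200 CPM and then at 152 and 147 CPM in SK-LMS-1. The log2FC was -0.90 ± 0.17 (SE) in SK-UT-1B (adjusted p = 0.0181) and -0.48 ± 0.15 in SK-LMS-1, with a mean of -0.69 ± 0.11 (edgeR adjusted p = 0.00932). CALR, the lectin chaperone calreticulin, was at 1210 and 1290 CPM and then at 697 and 967 CPM in SK-UT-1B, and at 1880 to 2090 CPM and then at 1290 and 1280 CPM in SK-LMS-1. The log2FC of CALR was -0.59 and -0.64, the closest agreement in size among the 10 genes, with a mean of -0.61 ± 0.10 (edgeR adjusted p = 0.00932). HSP90B1, the ER form of HSP90, was at 1110 and 1440 CPM and then at 991 and 1000 CPM in SK-UT-1B, and at 1650 to 2120 CPM and then at 1190 and 1090 CPM in SK-LMS-1 (mean -0.53 ± 0.10, edgeR adjusted p = 0.0354).

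TXNIP, an alpha-arrestin that binds thioredoxin and limits glucose uptake, rose by nearly the same fold from very different levels. It was at 198 and 190 CPM after DMSO and at 475 and 297 CPM after the combination in SK-UT-1B, and at 11.2, 8.63, 5.72, and 10.8 CPM and then at 17.1 and 21.6 CPM in SK-LMS-1, and its DMSO level was 21.3-fold higher in SK-UT-1B. The fold was 1.99 in SK-UT-1B and 2.11 in SK-LMS-1, with a mean log2FC of 1.04 ± 0.18 (SE, edgeR adjusted p = 0.0354). MMP2, the matrix metalloproteinase gelatinase A, was at 27.6 and 25.2 CPM and then at 44.5 and 42.9 CPM in SK-UT-1B, and at 403 to 444 CPM and then at 567 and 564 CPM in SK-LMS-1. The log2FC of MMP2 was 0.73 and 0.42, with a mean of 0.57 ± 0.09 (edgeR adjusted p = 0.00932). AK4, a mitochondrial adenylate kinase, was at 7.75 and 5.89 CPM and then at 18.1 and 28.1 CPM in SK-UT-1B, and at 38.1 to 47.4 CPM and then at 50 and 47.7 CPM in SK-LMS-1. Its log2FC was 1.76 and 0.20, so its mean of 0.98 ± 0.18 (edgeR adjusted p = 0.0283) rests almost wholly on SK-UT-1B.

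**Figure D3:**
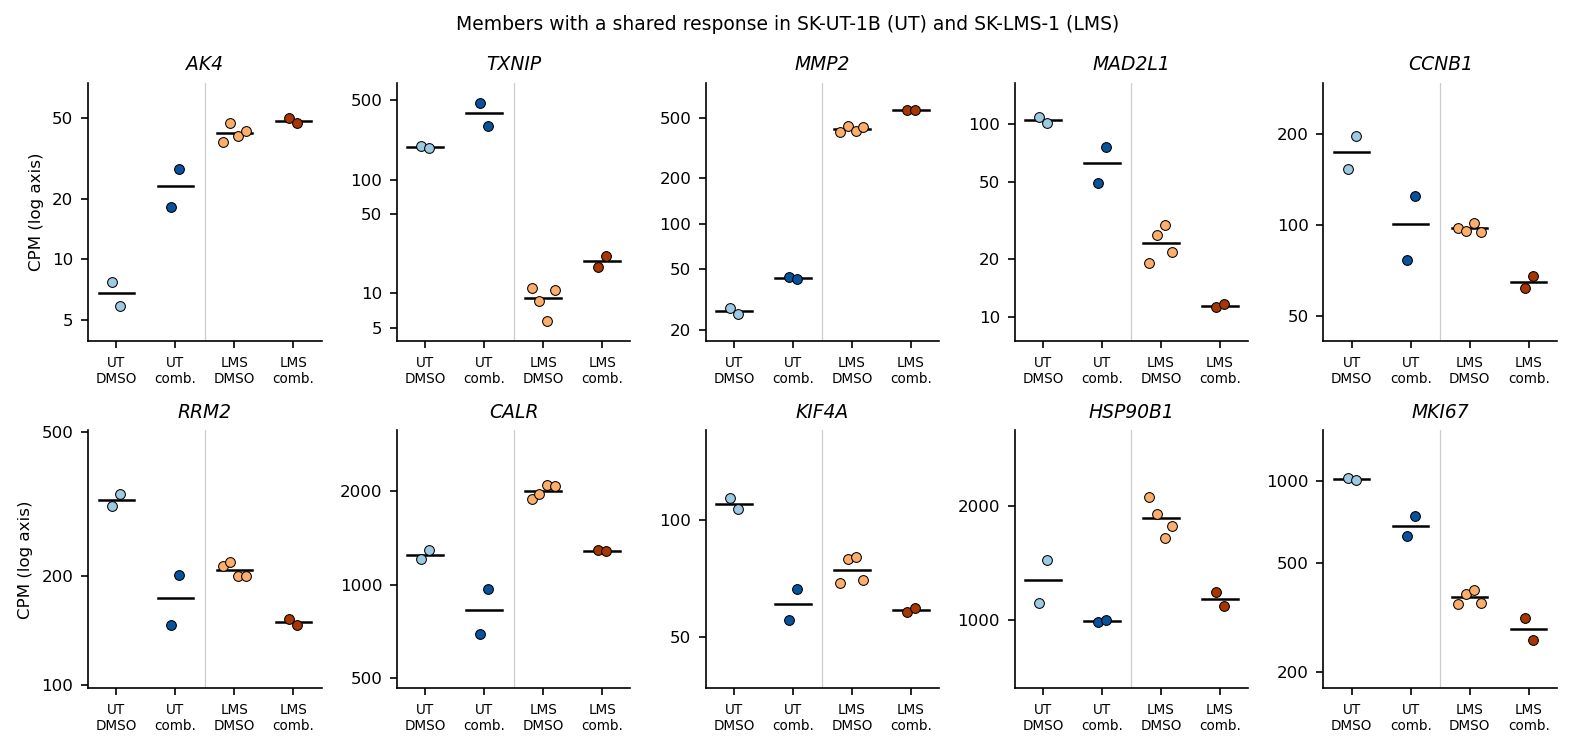
Each point is the CPM of 1 library on a log axis for the 10 shared responses, with the groups on the horizontal axis and a bar at the group mean. The combination libraries lie beyond all DMSO libraries of their line in every panel, for example 147 and 202 against 313 and 338 CPM for RRM2 in SK-UT-1B and 147 and 152 against 200 to 219 CPM in SK-LMS-1.

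The number of shared responses depends on single libraries. It was 0 without SK-LMS-1 combination 4-1 or 4-2, 3 without SK-LMS-1 DMSO 2-3 or 4-2, 6 without SK-LMS-1 DMSO 2-1 or SK-UT-1B DMSO 4-1, 8 without SK-LMS-1 DMSO 4-1 or SK-UT-1B DMSO 4-2, 15 without SK-UT-1B combination 3-1, and 127 without 3-3. The mean effects of MMP2, RRM2, and CALR were lost only without an SK-LMS-1 combination library among the alternatives that leave out a library, those of CCNB1 and KIF4A without any library but SK-UT-1B combination 3-3, and those of the other 5 genes without 6 to 8 of the 10 libraries, and none of the 10 changed sign. DESeq2 counted 65 of the 9050 genes as shared responses, 27 higher and 38 lower. Those that were lower held 13 of the 38 mitosis genes and 7 of the 21 ER chaperones.

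The other 7 genes whose mean effect passed were not shared in these terms, because the SK-LMS-1 groups overlapped, and they were named after their values were seen. They were EGR1, an immediate early transcription factor, with a log2FC of 2.61 in SK-UT-1B and 0.52 in SK-LMS-1, SLC16A4, a monocarboxylate transporter family member (2.52 and 0.20), RN7SKP203, a 7SK-type RNA locus (2.06 and 0.44), PCMTD1 (1.51 and 0.30), NDRG1 (1.78 and -0.20), SEMA7A (-1.59 and -0.05), and RBMS1, an RNA-binding protein (-1.59 and -0.10). All 7 passed in SK-UT-1B alone, where EGR1 went from 23.7 and 23.4 CPM to 200 and 86.9 CPM. In SK-UT-1B, SLC16A4 and RN7SKP203 reached the count limit through the combination libraries (means of 436 and 590 counts, against 74 and 142 after DMSO), and SEMA7A and RBMS1 through the DMSO libraries (418 and 502, against 134 and 159). SLC16A4 has an antisense gene model on the other strand, whose reads may be counted with it.

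Of the 25 genes that rose in SK-UT-1B, 19 had a log2FC above 0 in SK-LMS-1 (76%), and of the 10 that fell, 5 had one below 0, against 54.8% with the same sign over all 9050 genes. Of these 25 and 10 genes, 6 and 2 were under 200 mean counts in 1 of the groups. Genes named here from that set were chosen after their values were seen. Among these 25, the largest log2FC in SK-UT-1B were those of NMNAT1, a nuclear NAD-synthesizing enzyme (log2FC 2.67, against -0.05 in SK-LMS-1), EGR1, and SLC16A4, of which NMNAT1 and SLC16A4 reached the count limit in SK-UT-1B only through the combination libraries, as TNFRSF10D did. TNFRSF10D, a decoy receptor for TRAIL (1.74 and 0.02), DTX3, a Deltex-family ubiquitin ligase (1.73 and 0.07), BHLHE40, a circadian repressor that also responds to hypoxia (1.22 and 0.02), and GPNMB, a lysosomal and melanosomal glycoprotein (1.18 and 0.14), were close to 0 in SK-LMS-1. CDKN1A, the p53-responsive inhibitor p21 of cyclin-dependent kinases, rose in SK-UT-1B from 22.3 and 14.6 CPM to 44.7 and 38.9 CPM (log2FC 1.18 ± 0.24 (SE), edgeR adjusted p = 0.0364). In SK-LMS-1 it was at 50.7 to 56.1 CPM after DMSO and at 58.7 and 71.8 CPM after the combination (0.30 ± 0.20), and neither the mean (adjusted p = 0.0542) nor the difference (adjusted p = 0.613) passed with edgeR. DESeq2 called the mean (adjusted p = 0.0102) and counted CDKN1A as a shared response. The 10 that fell were RRM2, ANXA1, SELENOW, SEMA7A, RBMS1, PHF19, BZW2, and the histone genes H4C4, H3C2, and H2BC4.

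IGFBP5, which encodes an insulin-like growth factor binding protein, was the only 1 of the 9050 genes that passed in SK-LMS-1 alone. It was at 130, 108, 91.7, and 83.0 CPM after DMSO and at 228 and 211 CPM after the combination (log2FC 1.09 ± 0.17 (SE), edgeR adjusted p = 0.0361). In SK-UT-1B it was at 250 and 256 CPM and then at 220 and 297 CPM, so that the combination brought SK-LMS-1 near the SK-UT-1B level. The difference of -1.06 ± 0.27 did not pass with edgeR (adjusted p = 0.24) and passed with DESeq2 (adjusted p = 0.049). The rise in SK-LMS-1 passed in 8 of 19 alternatives, and of those that leave out a library only without SK-LMS-1 DMSO 2-1, SK-UT-1B combination 3-1, or SK-UT-1B combination 3-3, with log2FC values from 1.00 to 1.22 over all 10.

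None of the 8 Notch target genes listed reached 200 mean counts in both lines. HES1, the target by which the study picked these treatments for sequencing, had a mean of 168 counts in SK-UT-1B. It had 242 and 272 counts after DMSO and 92 and 64 after the combination in SK-UT-1B, and 751, 705, 472, and 1342 and then 127 and 33 in SK-LMS-1. Its mean log2FC over the lines was -2.49 (edgeR adjusted p = 0.0021) and the difference between the lines did not pass (adjusted p = 0.681), and because of that choice its direction is not independent evidence. The receptors NOTCH1 and NOTCH2 were above the limit. NOTCH1 was at 120 and 90.1 CPM and then at 124 and 136 CPM in SK-UT-1B, and at 31.6 to 43.7 CPM and then at 38.6 and 27.8 CPM in SK-LMS-1 (log2FC 0.31 and -0.20). NOTCH2 was at 289 and 284 CPM and then at 353 and 314 CPM in SK-UT-1B, and at 520 to 591 CPM and then at 642 and 633 CPM in SK-LMS-1 (0.22 and 0.16). Of the genes for the drug's target complex, NCSTN, which binds the substrate, had log2FC values of 0.53 and 0.13, APH1A 0.05 and 0.01, and PSENEN -0.28 and 0.24, and none of these 3 passed for any of the contrasts. Among 14 modulators of the pathway, DTX3 rose in SK-UT-1B and the median log2FC was 0.32 there and 0.05 in SK-LMS-1, while 9 of the 14 lay above DMSO without overlap in SK-UT-1B, against 21% of all 9050 genes.

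Nearly all mitosis genes had a log2FC below 0 in both lines (38 of 38 in SK-UT-1B and 37 in SK-LMS-1). Most DNA replication and histone genes had one below 0 in SK-UT-1B, with list medians near 0 in SK-LMS-1. Lists are described by counts and medians with no test of the list, beside a median log2FC of 0.01 in SK-UT-1B and 0.02 in SK-LMS-1 over all 9050 genes. Of 38 mitosis genes, 37 were lower without overlap in SK-UT-1B (21.8% of all 9050 genes were) and 20 in SK-LMS-1 (4.6% were), and all 20 were lower in both. The medians were -0.79 and -0.34, and 4 of the 38 passed for the mean and 0 for the difference. Of 42 DNA replication genes, 33 were lower in SK-UT-1B and 1 in SK-LMS-1, with medians of -0.57 and -0.06, but 0 passed in either line, for the mean, or for the difference with edgeR, and 0 for the difference with DESeq2. Examples were MCM7, a subunit of the replicative helicase, at 314 and 276 CPM and then 169 and 207 CPM in SK-UT-1B, but at 124 to 154 CPM and then 147 and 131 CPM in SK-LMS-1, and MCM4 (log2FC -0.49 and -0.15). Of 28 replication-dependent histone genes, whose transcripts end in a stem-loop in place of a poly(A) tail, 24 were lower in SK-UT-1B and 0 in SK-LMS-1, with medians of -0.84 and -0.03. H1-2, a linker histone, was at 819 and 680 CPM and then at 444 and 437 CPM in SK-UT-1B, and at 145 to 205 CPM and then at 168 and 166 CPM in SK-LMS-1. H4C4, H3C2, and H2BC4 fell in SK-UT-1B (log2FC -0.90, -0.86, and -0.83), and none of the 28 passed for the difference, while DESeq2 called 4 of them lower in SK-UT-1B. Histone genes share near-identical coding sequences, so counts between copies are uncertain. Of 14 genes for deoxynucleotide supply and gemcitabine handling, RRM2 passed for the mean, and the medians were -0.52 and -0.03.

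The size of these SK-UT-1B values depends on library 3-1. Without it, the SK-UT-1B median was -0.51 for mitosis, -0.38 for DNA replication, and -0.82 for histones, and without 3-3 it was -1.09, -0.81, and -0.86. The median difference between the lines went from -0.45 to -0.11 for mitosis without 3-1, but from -0.64 to -0.69 for histones. Without overlap, 37 of the 38 mitosis genes were lower in SK-UT-1B without 3-1 and 38 without 3-3, when 35.7% and 39.8% of all 9050 genes were, and 27 and 24 of the 28 histone genes were. Without SK-LMS-1 DMSO 2-1 and 4-1, 29 mitosis, 8 DNA replication, and 4 histone genes were lower in SK-LMS-1, when 16.1% of all 9050 genes were. The SK-LMS-1 median of the mitosis genes stayed between -0.41 and -0.29 over all 19 alternatives.

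**Figure D4:**
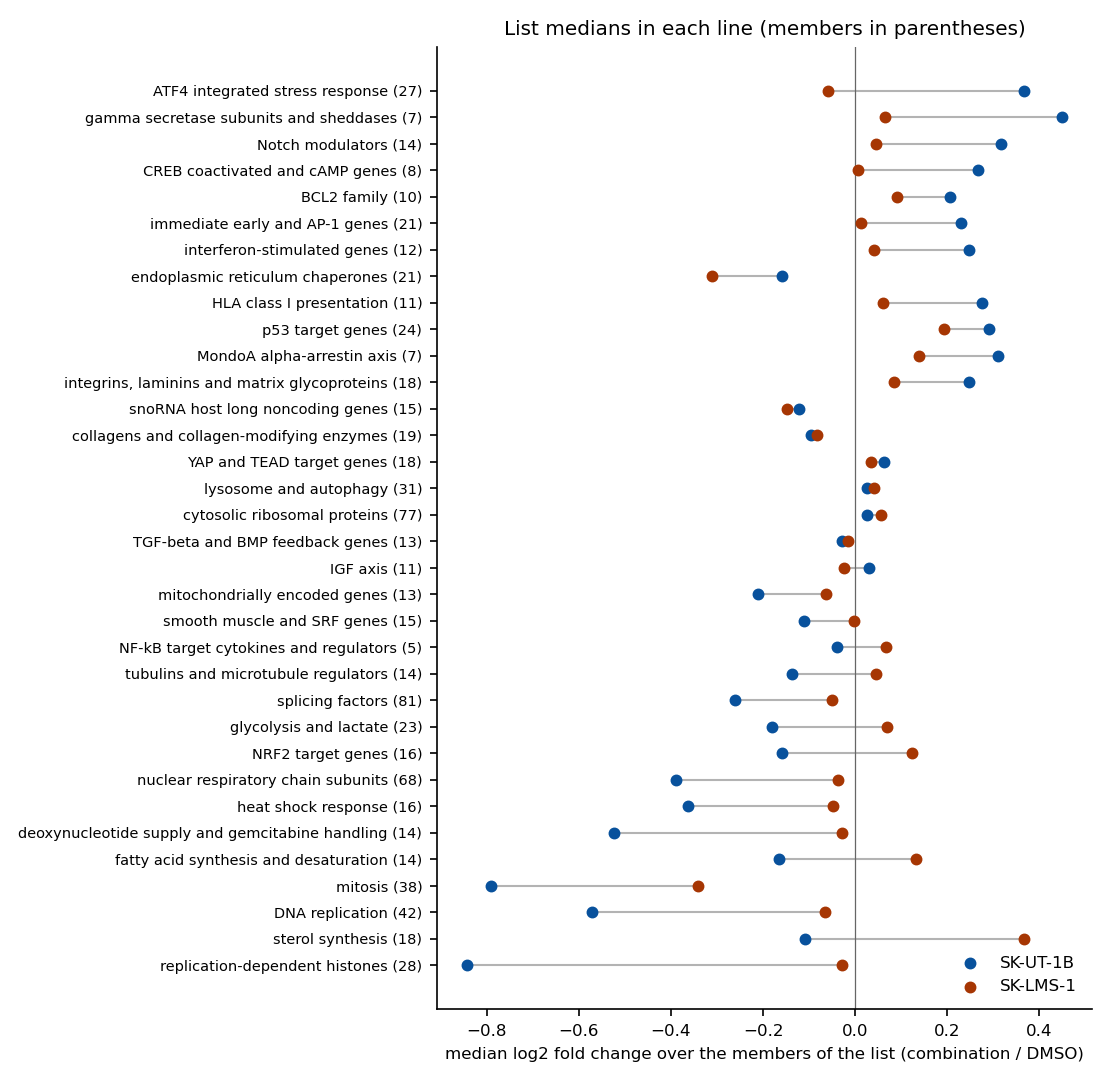
For gene lists, the median log2FC of the members is shown in SK-UT-1B and in SK-LMS-1. Mitosis lies at -0.79 and -0.34, histones at -0.84 and -0.03, ER chaperones at -0.16 and -0.31, and sterol synthesis at -0.11 and 0.37.

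In SK-LMS-1 most ER chaperones lay below the DMSO level and most sterol synthesis genes above it. Of 21 ER chaperones and partners, 18 had a log2FC below 0 in SK-LMS-1 and 13 in SK-UT-1B. Without overlap, 13 were lower and 0 higher in SK-LMS-1 (4.6% and 8.34% of all 9050 genes were), 10 were lower and 4 higher in SK-UT-1B (21.8% and 21%), and 8 were lower in both, with medians of -0.31 in SK-LMS-1 and -0.16 in SK-UT-1B. CALR and HSP90B1 passed for the mean, as above, and the SK-LMS-1 median stayed between -0.35 and -0.29 over the alternatives. The SK-UT-1B median was less stable, from -0.325 to -0.069. Without 3-1, 14 chaperones were lower and 4 higher in SK-UT-1B (35.7% and 33.6% of all 9050 genes were). Without 3-3, 11 were lower and 8 higher (39.8% and 40.7%). Of 18 sterol synthesis genes, 11 were higher without overlap in SK-LMS-1, against 8.34% of all 9050 genes, and in SK-UT-1B 3 were higher and 3 lower (21% and 21.8%). The medians were 0.37 in SK-LMS-1 and -0.11 in SK-UT-1B, and 17 of the 18 had a log2FC above 0 in SK-LMS-1. The SK-UT-1B median was 0.074 without 3-1, with 9 higher and 5 lower without overlap (33.6% and 35.7% of all 9050 genes were), and -0.35 without 3-3, with 5 higher and 10 lower (40.7% and 39.8%), so no direction of this list can be stated for that line. With edgeR, 0 passed for the difference, for the mean, or in either line, and DESeq2 also called 0 for the difference or as shared. SREBF2, the transcription factor of the pathway, was above DMSO without overlap in both lines (log2FC 0.35 and 0.34, adjusted p of the mean 0.308). SCD, the stearoyl-CoA desaturase, which shares its regulation with the sterol genes, was at 833 to 917 CPM and then at 1270 and 1280 CPM in SK-LMS-1 and at 861 to 885 CPM and then at 897 and 906 CPM in SK-UT-1B (difference -0.51 ± 0.17 (SE), edgeR adjusted p = 0.532, DESeq2 adjusted p = 0.0363). DESeq2 also counted SCD as a shared response (DESeq2 adjusted p of the mean 0.00425), with a log2FC of 0.04 in SK-UT-1B and 0.53 in SK-LMS-1.

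**Figure D5:**
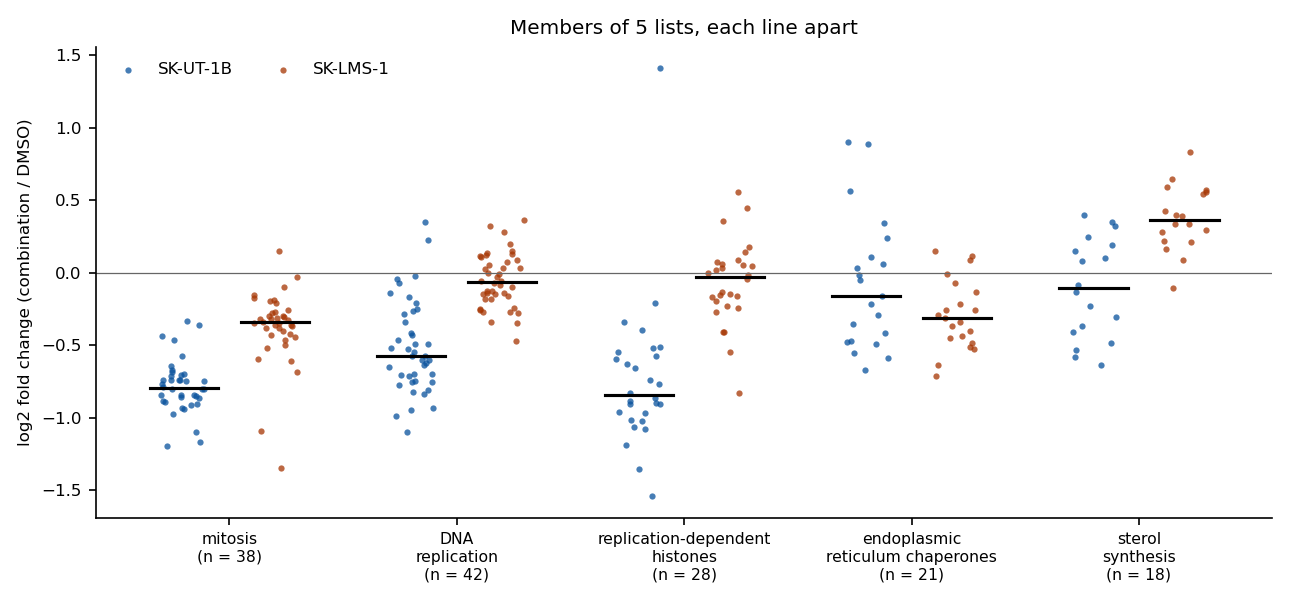
Each point is the log2FC of 1 gene in SK-UT-1B or SK-LMS-1 for the mitosis, DNA replication, histone, ER chaperone, and sterol synthesis lists, with a bar at the median. Nearly all mitosis genes are below 0 (38 of 38 in SK-UT-1B and 37 of 38 in SK-LMS-1). Of the others, 40 of 42 DNA replication genes and 27 of 28 histone genes are below 0 in SK-UT-1B and 26 and 16 in SK-LMS-1.

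Nuclear respiratory chain subunits and splicing factors had medians below 0 in SK-UT-1B and near 0 in SK-LMS-1. Of 68 nuclear respiratory chain subunits, 37 were lower without overlap in SK-UT-1B (21.8% of all 9050 genes were) and 2 in SK-LMS-1 (4.6%), with medians of -0.39 and -0.04. The SK-UT-1B median was -0.18 without 3-1 and -0.70 without 3-3. ATP5F1A, the alpha subunit of ATP synthase, was at 626 and 632 CPM and then at 383 and 512 CPM in SK-UT-1B. Of 81 splicing factors, 43 were lower in SK-UT-1B and 8 in SK-LMS-1, beside the same shares of 21.8% and 4.6%, with medians of -0.26 and -0.05, and the SK-UT-1B median went from -0.49 without 3-3 to -0.21 without 3-1. None of either list passed for the mean or the difference (edgeR). Of 18 integrins, laminins, and matrix glycoproteins, 10 were higher and 2 lower without overlap in SK-UT-1B (21% and 21.8% of all 9050 genes were), and SK-LMS-1 had 5 higher and 2 lower (8.34% and 4.6%). In that list TNC, tenascin C, had log2FC values of 0.40 and 0.26 and FN1, fibronectin, 0.47 and 0.18, and neither passed for the mean with edgeR (adjusted p of 0.138 and 0.197), whereas both did with DESeq2 (0.00846 and 0.0277). The p53 target list had medians of 0.29 and 0.19, with 9 and 4 of 24 higher without overlap, against 21% and 8.34%, and its SK-UT-1B median was 0.057 without 3-1.

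For ATF4 targets the SK-UT-1B combination libraries went in opposite directions, and for heat shock genes 3-1 was lower while 3-3 stayed near the DMSO level, so no response of that line can be stated for either list. The median log2FC of 27 ATF4 targets was 0.37 in SK-UT-1B, but -0.62 without 3-1 and 0.92 without 3-3, and SLC7A5, an amino acid transporter of that list, was at 1230 CPM in 3-1 and 452 CPM in 3-3, against 727 and 579 CPM after DMSO. The median of 16 heat shock genes was -0.36, but 0.04 without 3-1 and -0.998 without 3-3, and HSPA8, the constitutive HSC70, was at 1230 CPM in 3-1 and 3870 CPM in 3-3, against 3660 and 3650 CPM after DMSO. In SK-LMS-1 both lists were near 0 (medians -0.06 and -0.05), with 3 of 27 and 1 of 16 lower without overlap, against 4.6% of all 9050 genes. There 1 of the 27 and 2 of the 16 were higher without overlap, against 8.34%. What sets library 3-1 apart was not tested.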

How the data were processed

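RNA sequencing of 10 libraries was used, and the 2 SK-LMS-1 libraries of MK-0752 alone entered only an alternative with all 12 libraries. Ribosomal RNA was depleted before the authors made strand-preserving libraries, and per the submitters' processing notes they used Trim Galore 0.3.7, STAR 2.7.9a, and the genome build hg38. The deposited values are whole read counts for each gene, made with STAR and not normalized; the annotation and the strand setting are not given in the sources used here. Reads carry no molecular identifiers, so counts are reads and not molecules. Names and coordinates were taken from GENCODE v44 (hg38), with overlapping genes reported where they matter.

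Groups were line and treatment, 4 in all. edgeR 4.0.16 (R 4.3.3) was used with filterByExpr, TMM normalization, and a robust quasi-likelihood fit, with contrasts for each line, the difference (SK-UT-1B minus SK-LMS-1), and the mean. A gene was called at a Benjamini-Hochberg adjusted p under 0.05 over all 20166 genes tested. SE was taken from the log2FC and its F statistic. All 3 genes called for the difference also had an absolute log2FC difference of at least 1. CPM used TMM-scaled library sizes, and non-overlap was read from CPM. The fit was tested on simulated data, where the share of false calls was above that of the threshold, so single calls near it are less certain than their adjusted p. Among the 9050 genes, the text names up to 8 genes called for the difference in each direction (or the 3 of lowest p), up to 6 shared responses in each direction, opposite responses, called genes or 2 abundant examples of each of 36 gene lists, and 13 Notch and cell cycle genes; others are named as chosen after their values were seen, and some genes that the rule names are not reported here. The genes and lists were chosen with earlier results of these data known. Alternatives were DESeq2 1.42.0, its size factors, other filters, SK-LMS-1 DMSO set 2 or set 4 alone, all 12 libraries, a replicate block, higher count limits, and each library left out, with a fit without SK-LMS-1 DMSO 2-1 and 4-1 and the recounts of list medians, of genes without overlap, and of shared and opposite genes chosen after seeing the data.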

Additional observations from a re-analysis of the deposited data

Results flagged for a closer look

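The response to the combination differed between the lines by the test of the difference itself for COL15A1 (log2 difference 3.66, SK-UT-1B minus SK-LMS-1), NDRG1 (1.99), and TFPI2 (1.29). These 3 were the only genes with at least 200 mean counts in both lines that passed edgeR's test of the difference, and DESeq2 called all 3 as well.

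In 2 of 45 genes with values in the text, 1 of the 4 SK-LMS-1 DMSO libraries lay far from the other 3, and chance gives about 1 in 20. H2AC20, a histone gene, was at 59.9 CPM in 4-1 against 42.7 to 44.9 CPM. MCM7 was at 124 CPM in 2-1 against 151 to 154 CPM. Neither gene passed any test here.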

How the results depend on the processing

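Genes called are given for all 20166 tested and, after it, for the 9050 genes with at least 200 mean counts in both lines. These were 31 and 3 for the difference, 97 and 35 in SK-UT-1B, 8 and 1 in SK-LMS-1, and 66 and 17 for the mean, with 10 shared and 1 opposite response. DESeq2 gave 136 and 38, 501 and 248, 33 and 9, and 250 and 124, with 65 shared and 6 opposite, and it called every gene that edgeR called. Without a filter beyond 1 count, edgeR gave 360 and 68, 631 and 295, 92 and 12, and 482 and 171, with 58 shared and 10 opposite. With a mean of at least 50 counts, SK-LMS-1 had 1 and 0 and the mean 27 and 4, with 3 shared. With only SK-LMS-1 DMSO set 4, SK-UT-1B had 32 and 9, SK-LMS-1 5 in all, and the mean 18 and 0, with 0 shared and 3 opposite. With only set 2, SK-UT-1B had 43 and 17, SK-LMS-1 2 and 0, and the mean 27 and 5, with 4 shared. With all 12 libraries, the difference had 49 and 7, SK-UT-1B 146 and 64, SK-LMS-1 2 in all, and the mean 26 of the 9050, with 4 opposite. Without SK-LMS-1 DMSO 2-1 and 4-1, chosen after seeing the data, the difference had 18 and 1, SK-UT-1B 40 and 15, SK-LMS-1 1 and 0, and the mean 23 and 2, with 1 shared and NDRG1 in place of COL15A1 as the opposite response. NDRG1 was also opposite, beside COL15A1, with only set 4 and without SK-LMS-1 DMSO 2-1. A limit of 500 counts, or of 200 in each group, left 0 opposite responses because COL15A1 falls under it. DESeq2's size factors changed none of these counts by over 1.5 times, and they moved the median log2FC by at most 0.0312 in size. For the other settings the cause was not tested.

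Leaving out each library in turn gave 21 to 498 genes for the difference (1 to 327 of the 9050), 59 to 1071 in SK-UT-1B (8 to 808), 1 to 15 in SK-LMS-1 (0 to 6), and 23 to 697 for the mean (0 to 496), with 0 to 127 shared and 1 to 50 opposite responses. The highest value of each came without SK-UT-1B combination 3-3. The sign of a difference that had not passed turned in some of these fits, with ranges of -0.017 to 0.14 for NOTCH2, -0.14 to 0.79 for NCSTN, and -0.35 to 0.078 for ATP5F1B, each turned without SK-UT-1B combination 3-1, and -0.27 to 0.022 for HNRNPA1, turned without SK-UT-1B DMSO 4-2. The range was -0.16 to 0.25 for APH1A, turned without SK-LMS-1 DMSO 4-1 or SK-UT-1B DMSO 4-2, and it was also below 0 with only set 2 (-0.074) and without SK-LMS-1 DMSO 2-1 and 4-1 (-0.084).

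With a replicate block for the SK-LMS-1 numbers 4-1 and 4-2, which DMSO and combination share, edgeR called 19 genes for the difference, 16 and 1 in SK-UT-1B, 1 and 0 in SK-LMS-1, and 19 and 1 for the mean, with 1 shared. The deviations of the same-numbered libraries correlated at -0.0343 over 2 pairs, so the numbers were not taken as pairs, and SK-UT-1B shares no number. The precision is set by 2 libraries per group in 3 of the 4 groups, with a median SE of 0.335 for the difference.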

Other observations

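Other lists of the same 9050 genes are given by the median log2FC, first of SK-UT-1B and then of SK-LMS-1, as values with no test. Immediate early and AP-1 genes (21 genes) were at 0.23 and 0.01, with 7 of them above DMSO without overlap in SK-UT-1B and 0 in SK-LMS-1, against 21% and 8.34% of all 9050 genes. HLA class I presentation genes (11) were at 0.28 and 0.06, interferon-stimulated genes (12) at 0.25 and 0.04, and CREB and cAMP genes (8) at 0.27 and 0.01. Glycolysis and lactate genes (23) were at -0.18 and 0.07, fatty acid synthesis genes (14) at -0.17 and 0.13, NRF2 targets (16) at -0.16 and 0.12, and tubulins and microtubule regulators (14) at -0.14 and 0.05. The SK-UT-1B glycolysis median turned to 0.07 without library 3-1, and that of PKM, the pyruvate kinase of this list, came from 754 CPM in 3-1 beside 1650 CPM in 3-3, against 1870 and 1640 CPM after DMSO. Mitochondrially encoded genes (13) were at -0.21 and -0.06. Without 3-1 the SK-UT-1B medians of the mitochondrially encoded and fatty acid synthesis genes also turned, to 0.091 and 0.061, and without 3-3 that of the CREB and cAMP genes turned to -0.12. BCL2 family genes (10) were at 0.21 and 0.09, gamma secretase subunits and sheddases (7) at 0.45 (0.0085 without 3-1) and 0.06, Notch receptors and ligands (3) at 0.22 and 0.01, and the alpha-arrestin list that holds TXNIP (7) at 0.31 and 0.14. Further SK-UT-1B medians kept their sign over the 19 alternatives but moved in size. They ranged from -0.386 to -0.109 for tubulins, 0.122 to 0.448 for immediate early genes, and 0.111 to 0.356 for interferon-stimulated genes. For HLA genes the range was 0.165 to 0.393, for the BCL2 family 0.0969 to 0.254, for Notch receptors 0.115 to 0.238, and for alpha-arrestins 0.215 to 0.442.

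Both medians were within 0.15 of 0 for cytosolic ribosomal proteins (77 genes, 0.03 and 0.06), lysosome and autophagy genes (31, 0.03 and 0.04), snoRNA host genes (15, -0.12 and -0.15), YAP and TEAD targets (18, 0.06 and 0.04), smooth muscle and SRF genes (15, -0.11 and 0.00), TGF-beta and BMP feedback genes (13, -0.03 and -0.02), IGF axis genes (11, 0.03 and -0.02), and NF-kB target genes (5, -0.04 and 0.07). Some of these left that range under an alternative, since the SK-LMS-1 median was 0.54 for the NF-kB list with only DMSO set 2 and -0.28 for the TGF-beta list with only set 4, and the SK-UT-1B median was -0.32 for smooth muscle genes without 3-3 and -0.22 for the NF-kB list without 3-1. None of these genes passed for the difference with edgeR, and of them EGR1 and TXNIP rose and CALR, which the HLA list also holds, fell in the mean. DESeq2 called 5 of them for the difference, EGR1 (2.11) and CRIM1 (0.82) higher in SK-UT-1B and SCD (-0.49), MYOF (-0.70), and IGFBP5 (-1.03) lower, and these were named after their values were seen.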
